A study of Mus musculus with 6 samples.

Results

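Mitochondrial gene expression genes and mitochondrial tRNA synthetases were examined in mouse retina with and without Ronin, a zinc finger transcription factor encoded by Thap11. They comprised the 17 genes whose symbols match a single capital letter followed by ars2, which encode mitochondrial aminoacyl-tRNA synthetases, and 24 genes chosen by name for mitochondrial transcription, DNA replication, RNA processing, translation or nuclear control of mitochondrial genes. All 41 were among the 23441 genes listed, and all 41 had enough reads to be tested. Polyadenylated RNA of retinae at embryonic day 14.5 was sequenced in 3 libraries per genotype, on a mixed strain background of C57/B6, SJL/B6, 129/Sv and FVB. Control mice carried Ronin flox/flox alleles without a Cre transgene, and CKO (conditional knockout) mice carried the same alleles with a Cre::GFP transgene (+/tg). The labels call the deletion specific to retinal progenitor cells. The labels do not say whether replicates came from separate animals or from pools, so p-values measure only how far these libraries vary, which can be technical.

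Mitochondria keep a small genome that encodes core subunits of the respiratory chain and the ribosomal and transfer RNAs needed to translate them. Every protein that copies, transcribes and translates this genome is encoded in the nucleus and imported. Mitochondrial tRNAs are charged by synthetases, each for 1 amino acid and most of them encoded apart from their cytosolic counterparts. A set of initiation, elongation, release and recycling factors related to those of bacteria runs the mitochondrial ribosome. Ronin binds DNA together with the coregulator HCF-1, and a short sequence element recurs in the promoters that it occupies. The retina is rich in mitochondria, and its progenitors divide rapidly at this stage.

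Levels are given as CPM, counts per 1000000 reads of the composition-scaled library, with the SD over 3 libraries. The libraries held between 23721052 and 28504391 counted reads. Thap11 checked the labels: it stood at 68.3, 82.0 and 71.6 CPM in control replicates 1 to 3 and at 11.2, 10.9 and 6.38 CPM in CKO replicates 1 to 3, and it fell in the CKO (log2 fold change -2.96 ± 0.24 SE, edgeR adjusted p = 0.00425). All 14 retina markers were detected, with summed levels of 4711 to 5058 CPM among controls against 5021 to 5053 CPM among CKO libraries. The 19 lens markers summed to 13.1 to 21.7 CPM among controls and to 11209, 66.8 and 837 CPM in CKO replicates 1 to 3, and 1 of them was at 0 in all controls. Markers of the pigment epithelium (35.6 to 82.3 CPM), periocular mesenchyme (58.5 to 191 CPM), microglia (35.2 to 49.6 CPM) and red cells (3.43 to 14.9 CPM) were present in all libraries, and 3 of 8 red cell markers were at 0 throughout. The 11 blood vessel markers summed to 297, 355 and 350 CPM in the controls and to 281, 257 and 281 CPM in the CKO, lower in every CKO library, and their part in the gene levels was not tested. Control replicate 2 stood apart, with Pearson correlations of log2(CPM + 1) of 0.957 and 0.974 to the other controls, which correlated at 0.984 with each other. In bulk tissue, fewer cells of a type and less RNA per cell cannot be told apart.

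Of the 41 genes, 1 stood apart in its fold change. Mtrf1, a mitochondrial peptide chain release factor gene, was 4.32-fold lower in the CKO, while the other 40 genes had log2 fold changes between -0.46 and 0.32, or at most 1.38-fold. By edgeR's quasi-likelihood test none of the 41 passed an adjusted p of 0.05, against 0.897% of all 14609 tested genes, and 1 of the 41 (Mtrf1) had an unadjusted p under 0.05, against 6.58% of all genes. DESeq2's Wald test called 1 of the 41, Mtrf1, against 2.28% of all genes (0.817% higher and 1.46% lower). Limma-voom called none, against 0.821% (0.185% higher and 0.637% lower). The edgeR share split into 0.192% higher and 0.705% lower. The median log2 fold change of the 41 was 0.03 against -0.03 over all tested genes, with 22 above 0 and 19 below, where 55% of all genes were below. A change of at least 1 in log2 size was seen in 1 of the 41 and in 2.42% of all genes. CKO and control libraries did not overlap for 5 of the 41, or 12.2%, close to the 12.6% of all tested genes. Of these, 4 were higher in the CKO, against 5.74% of all genes, and 1 was lower, against 6.91%. The heat map of the genes in each library and the plot of their fold changes show 1 gene apart from a group whose variation lay mostly among the controls.

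**Figure D1:**
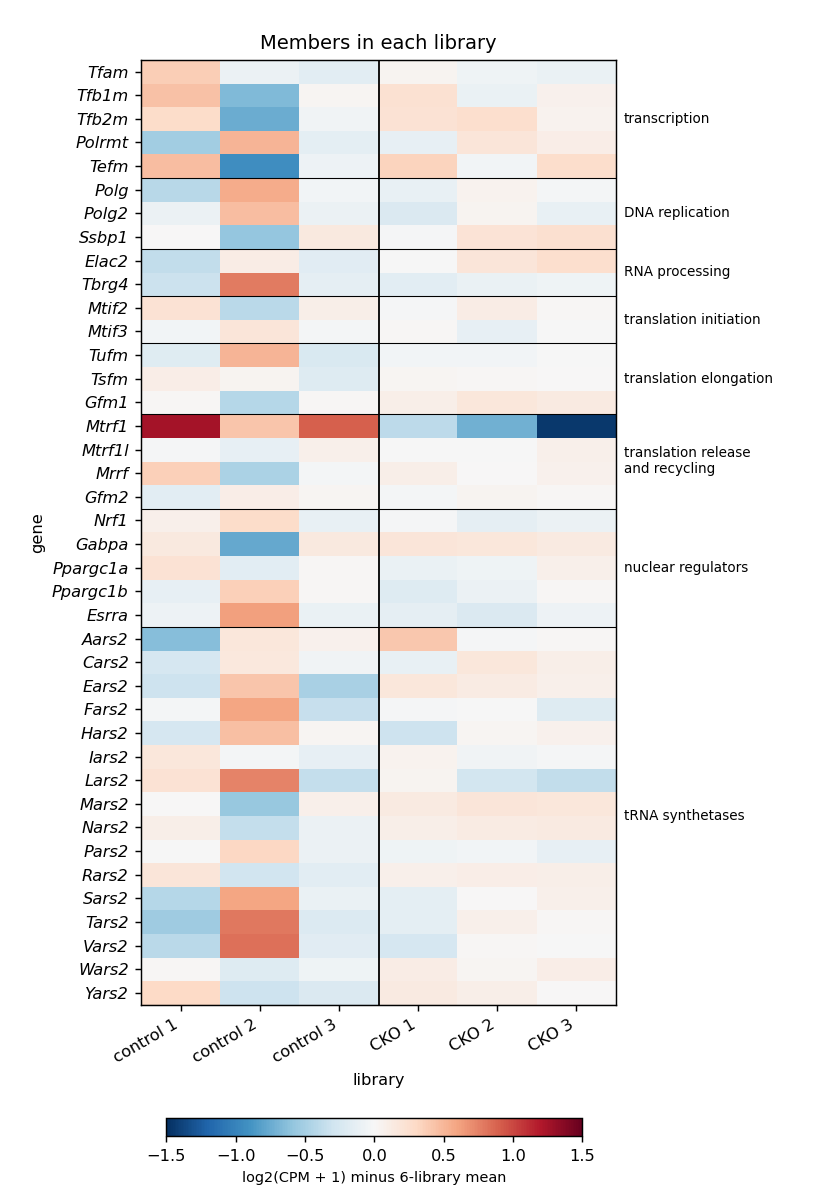
Colour gives each gene's log2(CPM + 1) in a library minus its mean over the 6 libraries, for 40 of the 41 genes (rows, by role) in 3 control and 3 CKO libraries (columns). Mtrf1 is high in all 3 controls and low in all 3 CKO libraries, while most other strong colours lie in control replicate 2.

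**Figure D2:**
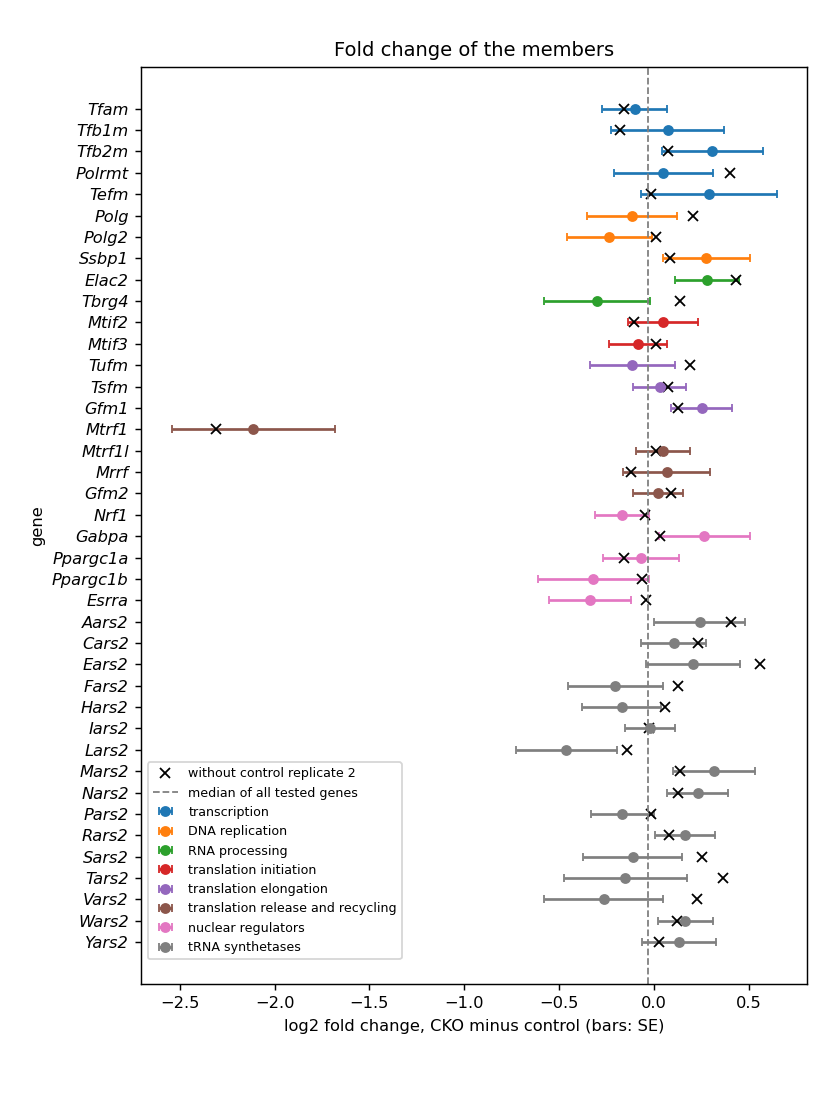
Points give the log2 fold change (CKO minus control) with its SE from edgeR for 40 of the 41 genes, coloured by role, crosses the value without control replicate 2, and the dashed line the median of all tested genes. Mtrf1 lies at -2.11, and the others lie between -0.46 and 0.32.

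The release factor result was read beside promoter sequence, since Ronin acts through DNA. RefSeq windows of 250 bases before to 50 bases after a gene start (build GRCm38.p6) matched 36 of the 41 genes. The element was read from the windows themselves. Of all patterns of 6 letters, 2 free positions (N) and 4 letters, a shape chosen with the known Ronin element in mind, ACTACANNTCCC was the one held by more of the genes that fell in the CKO by edgeR than any other (66 of 88 with a window, or 75%), and that share is how it was chosen. Among genes that rose it stood in 8 of 21 (38.1%). Searched on both strands, it was found in 3 of the 36: Mtrf1, Polrmt and Tbrg4, none of which took part in the choice. Of all 32851 windows, 1.81% held it, and of 11429 tested genes with a window, 503 (4.40%) did. Of these 503 genes, edgeR called 66 lower and 8 higher, and the median log2 fold change of all 503 was -0.20. The stretches around the element are shown 5′ to 3′ along the gene for Mtrf1, Polrmt and Tbrg4. These 3 genes carry the same element with different changes in expression. Capitals mark the element.
Mtrf1, chr14:79397681-79397771, plus strand: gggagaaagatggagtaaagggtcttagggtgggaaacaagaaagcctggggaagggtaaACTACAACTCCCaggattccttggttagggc
Polrmt, chr10:79746582-79746735, minus strand: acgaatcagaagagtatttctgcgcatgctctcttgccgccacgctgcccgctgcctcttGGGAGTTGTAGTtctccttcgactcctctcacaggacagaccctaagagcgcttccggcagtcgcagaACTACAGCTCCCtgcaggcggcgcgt
Tbrg4, chr11:6626117-6626248, minus strand: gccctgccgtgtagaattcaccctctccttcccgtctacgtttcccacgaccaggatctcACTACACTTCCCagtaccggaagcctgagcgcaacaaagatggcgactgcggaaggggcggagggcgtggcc
The Mtrf1 element began 31 bases before the gene start. Polrmt held the element in 2 places, beginning 94 bases before the start on the opposite strand and 26 bases before it on the gene's strand, and Tbrg4 in 1 place, 121 bases before the start. A match of letters is a description and not a measured binding site.

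Mtrf1 belongs to the release and recycling factors, which end translation at a stop codon and free the ribosome. It stood at 11.1, 5.80 and 8.49 CPM in control replicates 1 to 3 (282, 133 and 223 reads) and at 2.87, 2.09 and 0.859 CPM in CKO replicates 1 to 3 (83, 56 and 21 reads). CKO replicate 3 was lowest, as it was for Thap11, a likeness that was not tested. The highest CKO library lay below the lowest control. Control libraries averaged 8.45 ± 2.64 CPM and CKO libraries 1.94 ± 1.02 CPM (SD, n = 3 each), which left 23.1% of the control level on the fitted scale. The log2 fold change of -2.11 ± 0.43 (SE) had an adjusted p = 0.106 with edgeR, 0.0998 with limma-voom and 8.9e-05 with DESeq2. It lay between -2.51 and -1.77 when each library was left out in turn, with edgeR adjusted p values of 0.0694 to 0.354. The lens marker sum of the CKO libraries ran from 66.8 to 11209 CPM. Among these libraries the lens sum and Mtrf1 were both highest in CKO replicate 1. The lens sum was lowest in CKO replicate 2 and Mtrf1 in CKO replicate 3. The part of lens tissue in the Mtrf1 level was not tested. No stretch of 50 bases of the GENCODE transcripts of Mtrf1 occurs in a transcript of another gene.

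The other release and recycling genes showed no such difference. Mtrf1l, the close relative of Mtrf1 that encodes the release factor for standard mitochondrial stop codons, stood at 17.7, 16.3 and 18.8 CPM among controls against 17.8, 17.9 and 19.0 CPM among CKO libraries (log2 fold change 0.05 ± 0.14). The groups overlapped. Mrrf, which splits the ribosome after release, was at 14.3 ± 4.33 and 15.02 ± 0.50 CPM (control and CKO, SD, n = 3 per group). Gfm2, the GTPase that works with it, stood at 48.9, 58.6 and 55.8 CPM among controls against 53.8, 56.5 and 55.3 CPM among CKO libraries. Between the genotypes these 3 genes differed by log2 fold changes of 0.02 to 0.07, with SEs of 0.13 to 0.23.

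The genes next to Mtrf1 in the RefSeq order were read as values, a choice made after the Mtrf1 levels were seen. Naa16, on one side, encodes an auxiliary subunit of an N-terminal acetyltransferase and stood at 27.4, 28.6 and 31.1 CPM among controls against 29.98, 31.96 and 28.3 CPM among CKO libraries. On the other side lay Kbtbd7, a BTB and kelch domain gene, at 54.9, 35.6 and 48.7 CPM among controls against 33.3, 31.3 and 28.2 CPM among CKO libraries, with no overlap (log2 fold change -0.59 ± 0.19, edgeR adjusted p = 0.454, and 0.0296 without control replicate 2). Its relative Kbtbd6, listed as Zbtbd6, followed at 12.3, 10.3 and 10.01 CPM among controls against 5.64, 5.34 and 4.83 CPM among CKO libraries, and fell (log2 fold change -1.04 ± 0.18, edgeR adjusted p = 0.0468). That call was lost without control replicate 1 or 3 or any single CKO library (adjusted p of 0.0877 to 0.328). Scaling by library size only (0.0812), limma-voom (0.0518) or no filter on low counts (0.0501) ended it too. Of the 13 alternative fits, 4 kept the Kbtbd6 call, among them DESeq2's Wald test and leaving out control replicate 2 (edgeR adjusted p = 0.0322). Wbp4, the next gene, was at 65.4 to 68.2 CPM among controls against 61.8 to 63.3 CPM among CKO libraries. Every CKO library was thus below every control for Mtrf1, Kbtbd7, Kbtbd6 and Wbp4, while Naa16 overlapped. Of all tested genes, 6.91% were likewise lower without overlap. For Wbp4 the log2 fold change was only -0.09 ± 0.12 (edgeR adjusted p = 0.952). Whether these genes changed together was not tested. No promoter window was available for Kbtbd6, so it was not searched for the element. The Kbtbd7 window holds the element ACTACANNTCCC, beginning 186 bases before the gene start, shown here beside that of its neighbour Mtrf1.
Kbtbd7, chr14:79426265-79426396, plus strand: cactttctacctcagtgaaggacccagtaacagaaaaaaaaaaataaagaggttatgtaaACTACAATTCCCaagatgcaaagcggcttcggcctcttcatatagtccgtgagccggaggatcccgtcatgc

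**Figure D3:**
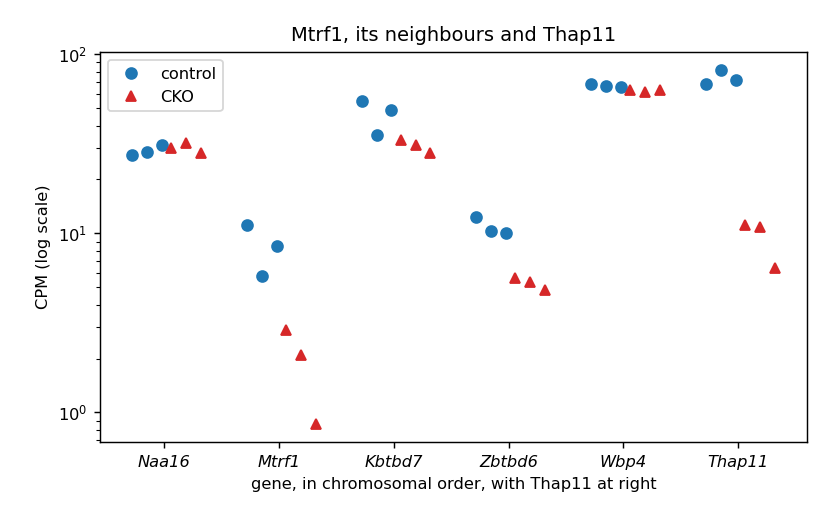
CPM on a log axis in each control (circles) and CKO library (triangles) for Mtrf1, its neighbours in chromosomal order and Thap11. Mtrf1, Kbtbd7 and Zbtbd6 (Kbtbd6) are lower in all CKO libraries, Wbp4 is narrowly lower, and Naa16 overlaps between the genotypes.

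None of the 5 genes of mitochondrial transcription passed a test, and their log2 fold changes lay between -0.10 and 0.31. Tfam, which packages the mitochondrial genome and starts its transcription, stood at 133, 96.7 and 91.9 CPM among controls against 106, 98.6 and 95.8 CPM among CKO libraries (log2 fold change -0.10 ± 0.17, edgeR adjusted p = 0.957). The CKO values lay within the control range. Polrmt, the mitochondrial RNA polymerase, was at 35.7, 73.7 and 46.3 CPM among controls against 47.3, 58.5 and 55.2 CPM among CKO libraries (0.05 ± 0.26, adjusted p = 0.988), and its promoter window holds the element in 2 places. Without control replicate 2 its log2 fold change was 0.40. The methyltransferase-like transcription factor gene Tfb2m stood at 19.4, 9.07 and 15.3 CPM among controls against 18.6, 19.1 and 16.5 CPM among CKO libraries (0.31 ± 0.27), and the elongation factor gene Tefm at 14.1, 4.71 and 9.36 CPM and 12.7, 9.63 and 12.1 CPM (0.29 ± 0.36). In both, control replicate 2 was the lowest library, and without it the differences were 0.07 and -0.02. Tfb1m, which methylates the small mitochondrial ribosomal RNA, was at 9.97 ± 3.95 and 10.5 ± 1.27 CPM.

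The 3 replication and 2 RNA processing genes had log2 fold changes between -0.30 and 0.28, and none passed a test. Polg, the catalytic subunit of the mitochondrial DNA polymerase, stood at 70.5, 139 and 91.3 CPM among controls against 87.3, 97.7 and 92.5 CPM among CKO libraries (log2 fold change -0.12 ± 0.24, and 0.21 without control replicate 2). Its accessory subunit Polg2 was at 8.47 ± 2.18 and 7.19 ± 0.75 CPM, and Ssbp1, which coats single-stranded mitochondrial DNA, at 10.7 ± 2.91 and 13.04 ± 1.34 CPM. Elac2, the nuclease that cuts the 3′ ends of mitochondrial tRNAs, stood at 39.1, 55.3 and 45.3 CPM among controls against 50.9, 58.2 and 60.8 CPM among CKO libraries (0.28 ± 0.17, adjusted p = 0.911, and 0.44 without control replicate 2). Only 1 control lay within the CKO range. Tbrg4, a mitochondrial RNA-binding protein of the FASTK family, was at 55.5, 120 and 63.7 CPM among controls against 62.7, 65.3 and 66.8 CPM among CKO libraries (-0.30 ± 0.28). Without control replicate 2 the Tbrg4 difference turned to 0.14, so that the sign of this element-bearing gene rested on 1 library.

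Initiation and elongation factors differed by at most 1.19-fold. Mtif2, which brings the initiator tRNA to the ribosome, stood at 58.7, 37.6 and 53.3 CPM among controls against 49.6, 54.1 and 50.9 CPM among CKO libraries (log2 fold change 0.05 ± 0.18), and Mtif3 at 13.9 ± 1.34 and 13.1 ± 0.70 CPM. Tufm, which delivers aminoacyl-tRNA, was at 21.8 ± 6.93 and 20.2 ± 0.30 CPM, and its exchange factor Tsfm at 31.8 ± 3.41 and 32.4 ± 0.33 CPM. Gfm1, the translocase, stood at 44.3, 32.2 and 44.4 CPM among controls against 46.7, 49.3 and 47.9 CPM among CKO libraries, so that all CKO libraries lay above all controls. Its difference of 0.25 ± 0.16 did not pass (edgeR adjusted p = 0.916) and was 0.13 without control replicate 2.

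The 17 synthetase genes had log2 fold changes from -0.46 to 0.32 with a median of 0.10, and none passed any of the 3 tests. Of them 9 were above 0 and 8 below, and without control replicate 2 14 were above 0 and 3 below, with a median of 0.13 against -0.01 over all genes. Libraries did not overlap for 3 of the 17, Mars2 and Wars2 among them, all higher in the CKO (against 5.74% of all tested genes with no overlap and a higher CKO). Mars2, for methionine, stood at 10.4, 6.63 and 10.96 CPM among controls against 11.4, 11.8 and 11.7 CPM among CKO libraries (0.32 ± 0.22, adjusted p = 0.926). Control replicate 2 was its lowest library, and without it the difference was 0.14. Wars2, for tryptophan, was at 15.5, 13.3 and 14.5 CPM among controls against 16.6, 15.6 and 16.4 CPM among CKO libraries (0.17 ± 0.15). That gap was narrow, between 15.5 CPM in the highest control and 15.6 CPM in the lowest CKO library.

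Lars2, for leucine, was the most abundant synthetase and had the lowest fold change of the family. It stood at 1258, 1800 and 842 CPM among controls against 1108, 891 and 833 CPM among CKO libraries (log2 fold change -0.46 ± 0.27, edgeR adjusted p = 0.908). Control replicate 3 lay between the CKO libraries, and without control replicate 2 the difference was -0.14. Per kilobase of its longest GENCODE transcript, Lars2 was at 334 ± 123 CPM among controls against 242 ± 37.3 CPM among CKO libraries, 34.4 times the control median of the other 16 synthetases. The others lay between 0.826 CPM per kilobase (Mars2) and 24.3 CPM per kilobase (Rars2). Lars2 alone took between 59.9% and 72.9% of all reads of the 17 genes in a library. Its transcripts shared 0.196% of their stretches of 50 bases with annotated transcripts of other genes. Sequence outside that annotation was not searched, so this share cannot show whether all Lars2 reads came from its own messenger RNA. The level per kilobase depends on the transcript chosen as the longest, which for Mars2 has 11294 bases.

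**Figure D4:**
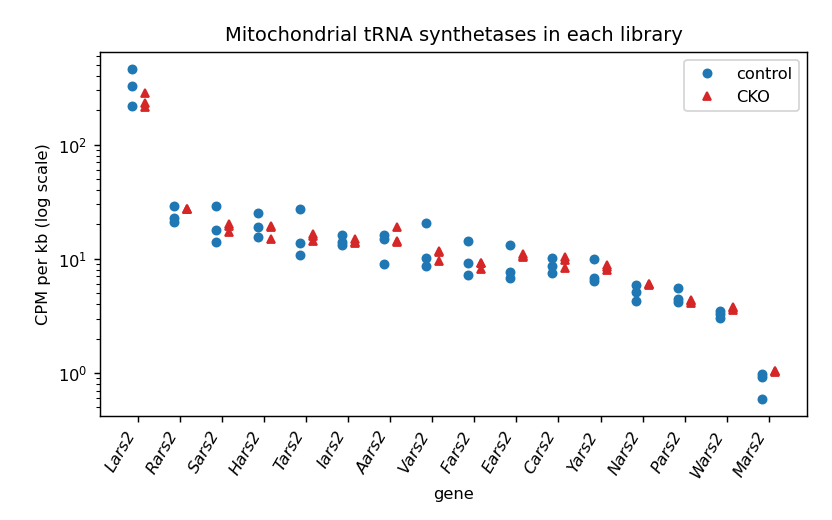
CPM per kilobase of the longest transcript, on a log axis, in each control (circles) and CKO library (triangles) for 16 of the 17 mitochondrial synthetase genes in order of their control mean. Lars2 lies above all others, and the genotypes overlap in 14 of the 16 genes shown.

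With all libraries, the remaining synthetases differed by a log2 fold change of at most 0.27 in size. Tars2, for threonine, stood at 34.9, 88.7 and 44.0 CPM among controls against 45.9, 53.7 and 51.3 CPM among CKO libraries, and Vars2, for valine, at 38.2, 91 and 45.2 CPM and 42.6, 51.8 and 50.6 CPM. In both genes control replicate 2 was the highest library, and leaving it out turned the difference from -0.15 to 0.36 and from -0.27 to 0.23. Fars2, Hars2 and Sars2 also turned from negative to positive values. Ears2, for glutamate, stood at 15.8, 26.8 and 13.9 CPM among controls against 22.5, 21.6 and 21.0 CPM among CKO libraries (0.21 ± 0.25). Without control replicate 2 its difference was 0.56 ± 0.11 (edgeR adjusted p = 0.0972), the highest of the 41 genes in that fit. Aars2, for alanine, was highest in CKO replicate 1, at 63.3 CPM against 46.9 and 48.2 CPM in the other CKO libraries, and lowest in control replicate 1 at 30.4 CPM. CKO replicate 1 also had the highest lens marker sum; the part of that tissue in the Aars2 level was not tested.

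Control replicate 2 was the library in which these genes most often stood apart. It had the lowest or the highest level of the 6 libraries for 33 of the 41 (80.5%), against 68.9% of all tested genes. The 11 periocular mesenchyme markers summed to 191 CPM in that library against 77.1 and 82.6 CPM in the other controls and 58.5 to 79.1 CPM in the CKO, and their part was not tested. The 23 genes in which it lay above the mean of controls 1 and 3 had a median transcript GC content of 54.4%, and the 18 in which it lay below had 45.0%. Across the 41 genes its deviation and GC content correlated at Pearson r = 0.802 and Spearman rho = 0.839, and across all 14489 tested genes with a transcript at 0.575 and 0.583. These points share the same 3 libraries, and genes are not independent replicates, so the values are a description. With transcript length the deviation correlated at -0.00798 among the 41. Tefm, Gabpa, Tfb1m and Tfb2m lay lowest in that library relative to the others, and Tars2, Vars2 and Tbrg4 highest. Leaving it out turned the sign of 14 of the 41 fold changes, and 5 of the 41 then had an unadjusted p under 0.05, against 1442 of 14776 genes in the same fit, with none past the adjusted threshold. The fold change between genotypes itself correlated with GC content at r = -0.163 and rho = -0.492 among the 41 and at -0.097 and -0.195 over all genes. With control replicate 2 left out of the difference, these values were 0.32 and 0.43 among the 41 and 0.214 and 0.327 over all genes.

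**Figure D5:**
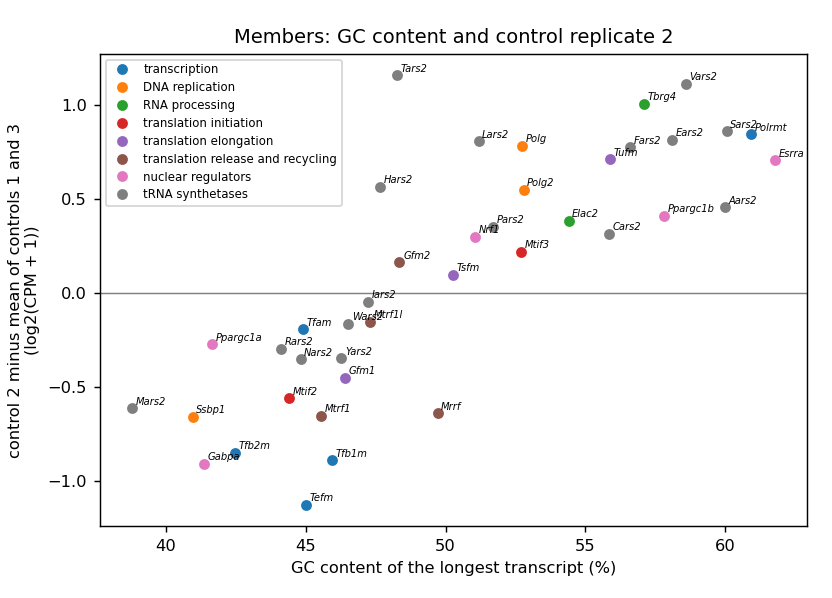
Each point is 1 gene, for 40 of the 41, with the GC content of its longest GENCODE transcript in percent on the x axis and log2(CPM + 1) in control replicate 2 minus the mean of controls 1 and 3 on the y axis, coloured by role. GC-rich genes mostly lie above 0 and GC-poor genes below, with r = 0.802 over all 41. The split is not clean: Tars2, the highest point, has 48.3% GC, and Mrrf, below 0, has 49.7%.

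Nuclear regulators of mitochondrial genes were measured alongside. Nrf1 and Gabpa encode DNA-binding activators of many nuclear genes for mitochondria, and Esrra a nuclear receptor that works with the coactivators of Ppargc1a and Ppargc1b. Nrf1 stood at 94.2, 109 and 82.6 CPM among controls against 88.4, 81.8 and 84.2 CPM among CKO libraries (log2 fold change -0.17 ± 0.14). Gabpa was at 128, 67.7 and 128 CPM among controls against 132, 131 and 127 CPM among CKO libraries, so that all libraries but control replicate 2 were alike (0.27 ± 0.24, and 0.03 without that library). Esrra was at 32.6, 53.4 and 32.1 CPM among controls against 31.3, 29.6 and 32.6 CPM among CKO libraries (-0.34 ± 0.22, and -0.04 without control replicate 2). Ppargc1b was the lowest of the 41 genes at 1.22, 2.09 and 1.45 CPM among controls against 1.11, 1.27 and 1.43 CPM among CKO libraries (-0.32 ± 0.29, and -0.06 without control replicate 2), and Ppargc1a was at 5.12 ± 0.78 and 4.89 ± 0.38 CPM. The letters GCATGCGC, a core of the NRF1 site searched on both strands, were in the promoter of 6 of 36 genes, or 16.7% (Tfb2m, Polrmt, Esrra, Rars2, Vars2 and Wars2), against 5.74% of tested genes and 2.71% of all windows. Those of the GABPA site, CCGGAAGT, searched on both strands, were also in 6 of 36 (Tfam, Tefm, Polg, Tufm, Gfm1 and Rars2), against 8.34% of tested genes and 3.89% of all windows.

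Other genes of the same pathways were read from 6 lists, of which 129 members were tested by edgeR. Of these, 0 passed the adjusted threshold in either direction, against 0.897% of all genes. Genotypes did not overlap for 14.8%, 13.6%, 17.4%, 0%, 12.5% and 21.4% of the tested genes, in the order of the lists below. The share over all tested genes was 12.6%. With DESeq2, 1 of the 129 list genes was called, against 2.28% of all genes. It was Prorp, listed as 1110008L16Rik, the catalytic subunit of mitochondrial RNase P, which cuts the 5′ ends of the tRNAs that Elac2 cuts at the 3′ ends. Prorp stood at 17.6, 11.3 and 15.6 CPM among controls against 27.7, 27.6 and 27.4 CPM among CKO libraries, so all CKO libraries lay above all controls. Control libraries averaged 14.8 ± 3.18 CPM and CKO libraries 27.6 ± 0.13 CPM (SD, n = 3 each), a log2 fold change of 0.89 ± 0.19 with an adjusted p = 0.118 by edgeR, 0.109 by limma-voom and 0.00120 by DESeq2. The lens marker sum differed widely among the CKO libraries, in which Prorp was between 27.4 and 27.7 CPM, and its part in the Prorp difference was not tested. Without control replicate 2 it passed edgeR's test at 0.0260 with a log2 fold change of 0.74. The partner subunits of RNase P were at 22.3 ± 8.26 and 25.4 ± 2.32 CPM (Trmt10c) and at 49.3 ± 10.1 and 44.4 ± 1.93 CPM (Hsd17b10).

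In the list of mitochondrial RNA processing and stability, 17 of the 27 genes tested lay above 0 in log2 fold change (median 0.08), and its most abundant member Grsf1, an RNA granule protein gene, was at 155.5 ± 27.5 and 160.5 ± 2.52 CPM. Of 22 genes of tRNA modification and charging cofactors 15 were positive (median 0.08). The smallest p there belonged to Gatb, listed as Pet112, a subunit of the amidotransferase that makes glutaminyl-tRNA in mitochondria, at 24.9, 35.6 and 20.4 CPM among controls against 18.7, 19.3 and 17.8 CPM among CKO libraries (-0.54 ± 0.22, edgeR adjusted p = 0.699, and -0.27 without control replicate 2), with no overlap. Its partner Gatc had a log2 fold change of 0.25, also with no overlap but higher in the CKO, and its partner Qrsl1 one of 0.08. Nsun2, the most abundant gene of that list and a tRNA methyltransferase, was at 177 ± 49.6 and 172 ± 4.70 CPM. Among 23 tested genes of ribosome assembly and translation cofactors 12 were positive (median 0.01). Cox18, a membrane insertion factor, was at 9.85 ± 2.72 and 14.1 ± 1.08 CPM (0.51 ± 0.23, edgeR adjusted p = 0.790, and 0.31 without control replicate 2), with no overlap. The helicase gene Dhx30 was at 179 ± 28.2 and 204 ± 13.2 CPM. Among 19 genes of mitochondrial DNA replication and nucleotide supply 10 were positive (median 0.01), with Suclg1, a subunit of succinyl-CoA ligase, at 79.9 ± 19.0 and 94.8 ± 6.45 CPM and the protease gene Lonp1 at 186 ± 97.4 and 141 ± 8.08 CPM.

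The list of cytosolic synthetases also held 3 scaffold genes of their complex (Aimp1, Aimp2 and Eef1e1), and Kars and Gars, which each encode the mitochondrial enzyme as well. Of 24 tested members 12 were positive and 12 negative (median -0.01). Lars, the cytosolic leucine enzyme, had the smallest p, at 147, 244 and 144 CPM among controls against 114, 114 and 118 CPM among CKO libraries (log2 fold change -0.62 ± 0.22, edgeR adjusted p = 0.548, DESeq2 0.319, and -0.32 without control replicate 2). All its CKO libraries lay below the controls. Eprs, the most abundant member, was at 330 ± 86.1 and 312 ± 14.0 CPM.

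Among 14 tested regulators outside the 41 genes, 6 were positive and 8 negative (median -0.04). Pprc1, which encodes a coactivator related to PGC-1, stood at 64.0, 135 and 82.3 CPM among controls against 52.6, 54.0 and 56.8 CPM among CKO libraries, below every control (log2 fold change -0.78 ± 0.26, edgeR adjusted p = 0.505, and -0.41 without control replicate 2). Hcfc1, the gene of the Ronin partner HCF-1 and the most abundant of the list, was at 417 ± 70.1 and 341 ± 3.50 CPM (-0.29 ± 0.15, edgeR adjusted p = 0.875). Its CKO libraries also lay below every control. Of the 98 list genes with a promoter window 1, Pprc1, held ACTACANNTCCC, in 2 places that began 140 and 30 bases before the gene start, on the gene's strand and on the opposite strand. Its stretch is shown for comparison with that of Mtrf1.
Pprc1, chr19:46056339-46056538, plus strand: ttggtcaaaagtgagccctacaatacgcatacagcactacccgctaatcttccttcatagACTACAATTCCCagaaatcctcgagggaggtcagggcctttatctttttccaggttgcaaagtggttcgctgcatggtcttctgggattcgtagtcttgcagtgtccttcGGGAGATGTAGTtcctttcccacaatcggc

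Some counts of these genes may include reads of other loci. Only annotated transcripts were searched, and the source of the high Lars2 count was not tested. Tufm shared 54.5% and Tfb2m 31.9% of their stretches of 50 bases with annotated genes elsewhere, mainly the pseudogenes Gm9755 and Gm1818. Mtif3, Iars2 and Mrrf shared 25.0%, 22.7% and 15.6% with other genes, for Mtif3 and Iars2 mostly with Gtf3a and Rab3gap2 on the opposite strand. No source used here states whether strand was kept, and reads of such overlapping genes cannot be told apart.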

How the data were processed

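The tools listed per the submitters' processing notes are HTSeq 0.5.4p3, BWA 0.7.6a-r433 and DESeq 2.13, with build mm9 and no roles or settings. The authors deposited raw read counts per gene symbol for 6 libraries, labelled by title and genotype, with totals of 23721052 to 28504391. Skipped were 3 merge-conflict lines, 1 blank line and 1 duplicate row. Per the labels' protocols, RNA was poly-A selected.

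Counts were filtered with filterByExpr (minimum count 10; 14609 genes kept), scaled by TMM and tested with edgeR 4.0.16's quasi-likelihood test in R 4.3.3 on genotype, with Benjamini-Hochberg adjustment over all tested genes; scripts were tested on simulated data. SEs were derived from each fold change and its F statistic. Alternatives used DESeq2 1.42.0, limma-voom (limma 3.58.1), other scaling and filters, a replicate block and leaving out each library. Of the synthetase genes, 1 is counted in all sums but its values are not reported here. The genes and lists were chosen with earlier results of these data known. Values per library were given for genes called by any tool, genes without overlap, the 4 largest fold changes in each direction and the most abundant gene of each role. From each list the called genes, or else the genes with the smallest p and the highest level, were named. Values of other genes were added to show each role. Those of Ears2, the RNase P and amidotransferase partners and the Mtrf1 neighbours were added after values were seen. Transcript lengths, GC content and shared stretches came from GENCODE M21, promoters and neighbour order from RefSeq GRCm38.p6, which differs from the build of the counts. No pair of replicates agreed within sampling noise (chi-square per degree of freedom of at least 5.94).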

Additional observations from a re-analysis of the deposited data

How the results depend on the processing

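Over 13 alternative fits, the median log2 fold change of the 41 genes stayed between 0.004 and 0.11, and no gene of the 41 was called higher. DESeq2's Wald test and the replicate block each called 1 gene lower, Mtrf1, where the main test called 0. Over all genes, DESeq2 called 117 higher and 209 lower against 28 and 103, and an adjusted p threshold of 0.01 left 8 and 31. Leaving out 1 library gave 6 to 72 higher and 10 to 147 lower: leaving out control replicate 2 gave 72 higher, control replicate 3 gave 6 and 27, CKO replicate 1 gave 8 and 33, CKO replicate 2 gave 29 lower, and CKO replicate 3 gave 6 and 10. The cause was not tested. Scaling by library size alone shifted the median of all genes to 0.04 and turned Eprs to 0.0042 and Nsun2 to 0.043. Of the 32 genes recomputed under every alternative, leaving out 1 library turned the sign of 10, and of 8 of these when it was control replicate 2. Their ranges were -0.22 to 0.16 for Eprs, -0.051 to 0.089 for Gfm2, -0.070 to 0.17 for Grsf1, -0.60 to 0.14 for Lonp1, -0.11 to 0.18 for Mtif2, -0.14 to 0.22 for Nsun2, -0.31 to 0.21 for Polg, -0.50 to 0.14 for Tbrg4, -0.016 to 0.70 for Tefm and -0.17 to 0.085 for Tfam. Thap11 passed in all 13 fits at the 0.05 threshold. Replicate numbers were not treated as pairs in the main fit. Deviations of same-numbered libraries correlated at 0.319, 0.096 and -0.031, and control replicates 2 and 3 correlated best with another number. With 3 libraries per group, such correlations cannot show whether the samples were paired. With the block, Mtrf1 stood at -2.17 on the log2 scale (edgeR adjusted p = 0.0159), and the Zbtbd6 call was lost (0.0616). At 21 to 83 reads per CKO library, the depth limits the precision of the Mtrf1 level.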
